A study of Sus scrofa with 16 samples.

Results

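Glial genes of the pituitary were followed in 8 Puławska gilts that needed little feed for their growth (low feed conversion, LFC, replicates 1 to 8) and in 8 that needed more (high feed conversion, HFC, replicates 9 to 16). The members were the 8 genes GFAP, VIM, APOD, SOX8, SOX9, AQP4, SOX10 and MBP, taken by symbol from the 25880 genes of the count table, and each symbol matched 1 row. GFAP, VIM, APOD, SOX8, SOX9 and AQP4 were treated as astroglial-type genes (6 members) and SOX10 and MBP as myelin genes (2 members). All 8 passed the filter on low counts. The groups shared breed, sex, feeding and housing, and the study's methods describe unrelated animals from different farms without any treatment. By the study's measurements, the HFC gilts of this breed also spent more days in test, gained less per day and ate more per day. Feed conversion cannot be told apart from these traits here. The age on the labels is 3 months, and the methods state that slaughter came later. Whole glands were homogenised, and the lobes were not separated. The labels' extraction text speaks of fat samples, but anterior lobe hormone genes summed to 12630 to 170697 CPM (counts scaled to the library total) in every library.

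The posterior lobe of the pituitary is nervous tissue. It holds the endings of hypothalamic axons that carry vasopressin and oxytocin, and between them lie pituicytes, which are specialised astroglia that surround the axon endings. Myelin is made by oligodendrocytes in the brain and by Schwann cells in peripheral nerves. The anterior lobe is an epithelial endocrine gland without astroglia of this kind, although its folliculostellate cells share some glial genes. In a whole-gland sample, fewer glial cells and less RNA per glial cell cannot be told apart.

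The libraries held 10.97 to 23.06 M counts, and HFC replicates 13 and 14 were the smallest. On the first principal component of log2 CPM, LFC replicate 5 (126), HFC replicate 13 (75.1) and HFC replicate 14 (56.6) stood apart from the other libraries. HFC replicate 16 lay farthest out on the second. Results that rest on these libraries are given with and without them. Levels are CPM of the total counts, and levels of different genes were not compared as expression because transcript lengths were not used here. Positions are on the pig assembly Sscrofa11.1.

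GFAP, the intermediate filament protein of astrocytes and pituicytes (ENSSSCG00000017343, chromosome 12, 18455952 to 18466680), had the widest range of the members, 402-fold between the highest and the lowest library. Its level ran from 0.518 to 57.1 CPM in LFC (median 1.69) and from 1.33 to 209 CPM in HFC (median 30.9). In 5 LFC and 3 HFC libraries it was at most 1.82 CPM, and in 7 libraries at least 31.6 CPM. These 7 were LFC replicates 1 (57.1 CPM), 5 (38.6) and 7 (31.6) and HFC replicates 10 (55.0), 13 (116), 14 (209) and 16 (81.9). HFC replicate 11 lay between, at 6.84 CPM. Glands of either kind were present in both groups, so the groups overlapped over most of the range. Its mean was 16.6 ± 22.5 CPM over the LFC libraries and 59.2 ± 74.5 CPM over the HFC libraries (SD, n = 8 each).

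SOX10, the transcription factor of oligodendrocytes, their precursors and Schwann cells (ENSSSCG00000039315, chromosome 5, 9890439 to 9901746 in the RefSeq annotation), divided the same glands. The 8 libraries with the highest GFAP were the 8 with the highest SOX10, 3 of them LFC and 5 HFC. They include HFC replicate 11, although its GFAP lay between the low and the high libraries. In these 8 libraries SOX10 was at 1.23 to 4.56 CPM, and in the other 8 at 0.0578 to 0.434 CPM. The lower values rest on 1 to 10 counts per library, so differences among them were not detectable at this depth. HFC replicate 14 was highest (4.56 CPM, 50 counts), followed by HFC replicate 11 (4.25 CPM, 82 counts), in which GFAP was far lower than in HFC replicate 14.

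VIM encodes vimentin, an intermediate filament protein of glia that fibroblasts, endothelium and leukocytes also make (ENSSSCG00000011033, chromosome 10, 43517283 to 43530623). It was at 201 to 468 CPM in LFC (median 303) and at 86.8 to 1691 CPM in HFC (median 460). The HFC group held both the 4 highest and the 3 lowest libraries of the 16. The highest were HFC replicates 16 (1691 CPM), 11 (1129), 14 (933) and 13 (565). The lowest were HFC replicates 12 (86.8 CPM), 15 (120) and 9 (145). The ratio of the highest to the lowest library was 2.33 within LFC and 19.5 within HFC.

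SOX8 and SOX9 are transcription factors of the same SOX subfamily as SOX10, with SOX9 central to astroglia and SOX8 shared between astroglia and oligodendrocytes. SOX8 (ENSSSCG00000037970, chromosome 3, 40710043 to 40830801) was at 1.56 to 4.51 CPM in LFC (median 2.67) and at 1.502 to 24.3 CPM in HFC (median 6.48). In HFC, 5 of 8 libraries lay above the highest LFC library and 1 below the lowest. HFC replicate 16 was highest at 24.3 CPM, followed by HFC replicates 11 (11.7 CPM), 14 (10.4) and 13 (7.76). The SOX8 model of the count table spans 121 kb, whereas RefSeq gives SOX8 4.93 kb at its far end and places SSTR5, a somatostatin receptor, inside the longer span. SSTR5 has a row of its own, at 1.31 CPM in HFC replicate 16, the library with the most SOX8. Because the libraries keep no strand and the model is long, the SOX8 counts are uncertain.

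SOX9 (ENSSSCG00000017251, chromosome 12, 8642154 to 8647315 in RefSeq) was at 4.92 to 10.1 CPM in LFC (median 6.75) and at 3.18 to 30.2 CPM in HFC (median 11.7). Its 4 highest libraries were again HFC replicates 16 (30.2 CPM), 11 (19.1), 14 (14.1) and 13 (13.6), and its lowest was HFC replicate 15 (3.18 CPM).

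APOD encodes apolipoprotein D, a lipid carrier made by glia and by fibroblasts (ENSSSCG00000011831, chromosome 13, 132514026 to 132557866). It was at 7.20 to 178 CPM in LFC (median 28.9) and at 8.20 to 156 CPM in HFC (median 52.7), and the highest library of the 16 was LFC replicate 5. AQP4, the water channel of astroglial end-feet (ENSSSCG00000035965, chromosome 6, 111407632 to 111422169 in RefSeq), did not follow the other members. It was at 5.72 to 28.1 CPM in LFC (median 23.7) and at 13.2 to 33.2 CPM in HFC (median 16.9). Its highest library, HFC replicate 9, had GFAP at 1.55 CPM, and its lowest, LFC replicate 5, had GFAP at 38.6 CPM.

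MBP encodes myelin basic protein, a main protein of compact myelin, and its locus also gives golli transcripts outside myelin (ENSSSCG00000038767, chromosome 1, 147568191 to 147685288). The model of the count table spans 117 kb and RefSeq gives 35.8 kb, and the forms were not separated in the counts. MBP was the steadiest member in LFC, at 93.0 to 143 CPM (median 107). In HFC it was at 74.3 to 244 CPM (median 106), with HFC replicates 14 (244 CPM) and 13 (223) above every other library. HFC replicates 11 (74.3 CPM) and 16 (78.6) were the 2 lowest of the 16, although SOX8, SOX9 and VIM were highest in them.

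**Figure D1:**
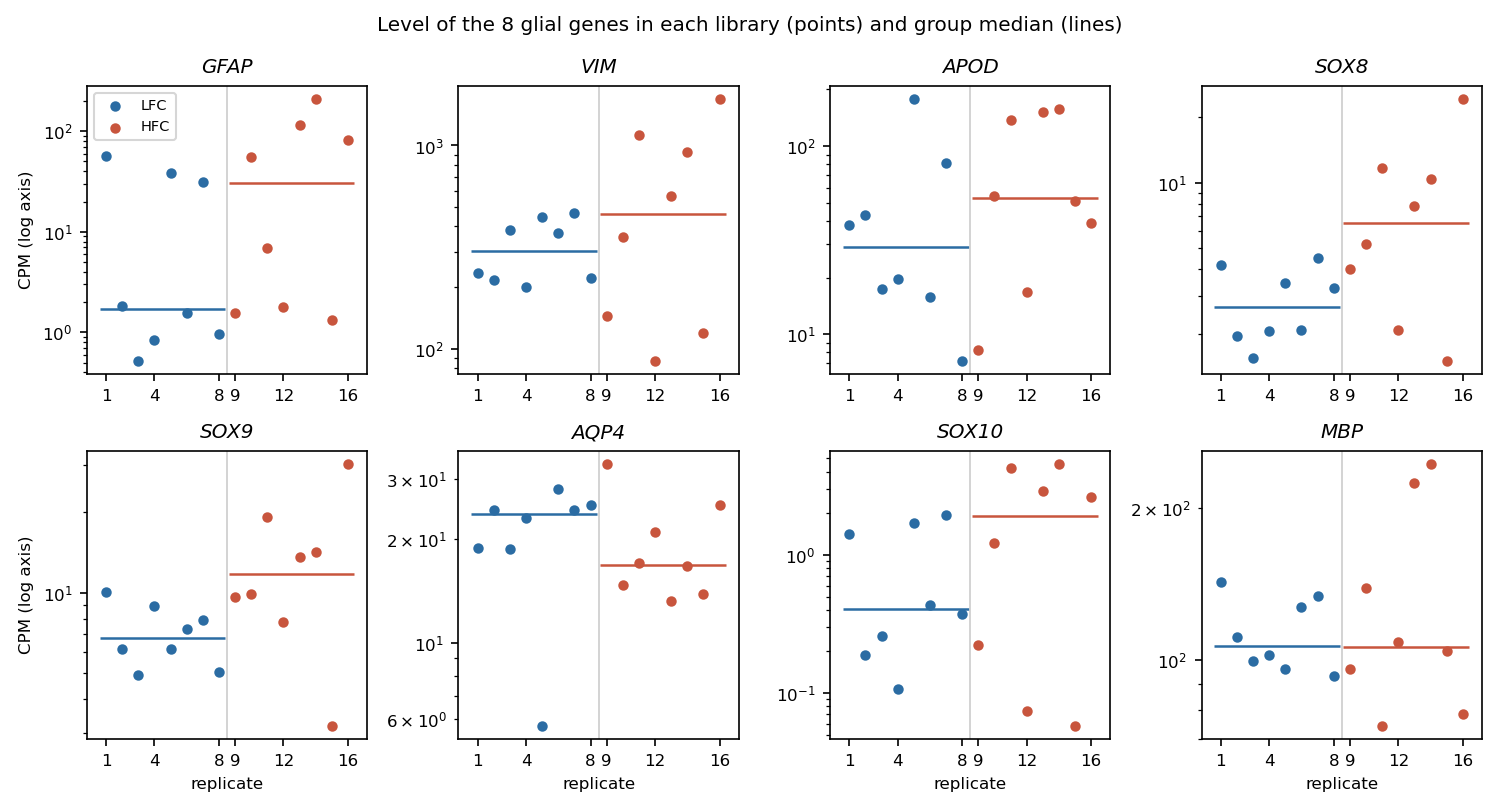
CPM of each of the 8 members (log axis, a scale of its own in each panel) in every library, with LFC replicates 1 to 8 and HFC replicates 9 to 16 as points and the group median as a line. GFAP and SOX10 fall into a low and a high set of libraries within both groups, with HFC replicate 11 between the sets for GFAP. MBP stays within 93.0 to 143 CPM in LFC and reaches 244 CPM in HFC replicate 14.

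The comparison of HFC with LFC asked whether these genes differed with feed conversion. In edgeR, 0 of 8 members passed an adjusted p-value of 0.05 with a fold change of at least 1.3, and of the 14319 genes tested 0 passed, a background of 0%. At an unadjusted p under 0.05 there were 2 members, SOX8 and SOX9, both higher in HFC, where 4.29% of all genes were higher at this level. No member was lower at this level, against 1.53% of all genes, and 834 genes (5.82%) passed in either direction. GFAP, VIM, APOD, SOX8, SOX9 and SOX10 (6 members) were at least 1.3-fold higher in HFC, as were 9.16% of all genes. With DESeq2, 0 members and 6 of all genes were called, and 2 members had an unadjusted p under 0.05. Of the 8 log2 fold changes 7 were above 0, as were 48.4% of those of all genes, and their median was 0.99 against -0.01 for all genes. The members share libraries and are not independent of each other.

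SOX8 had a log2 fold change of 1.59 (SE 0.49, 95% interval 0.55 to 2.63, edgeR adjusted p = 0.612). Its mean log2 CPM was 1.12 higher in HFC (exact permutation test, two-sided p = 0.0493), and 6 of 8 HFC libraries exceeded the LFC mean. SOX9 had a log2 fold change of 0.97 (SE 0.34, interval 0.24 to 1.69, edgeR adjusted p = 0.654). Its mean log2 CPM was 0.72 higher (exact permutation p = 0.0721), and 7 of 8 HFC libraries exceeded the LFC mean. Both rested in part on HFC replicate 16, without which the log2 fold changes were 1.08 and 0.64. The study lists SOX8, VIM and APOD among the genes it called different for this breed from these libraries. Their direction is therefore no independent evidence. The study used DESeq2 with the same cut-offs as here, but the calls differ. The DESeq2 fit here called 6 genes, with 0 members among them. Its adjusted p-values were 0.174 for SOX8, 0.751 for VIM and 0.9999 for APOD. The cause of this disagreement was not tested.

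GFAP had the largest log2 fold change among the members, 1.90, with an SE of 1.19 and an interval from -0.60 to 4.41 (edgeR adjusted p = 0.980). The exact permutation p was 0.241. It was 1.22 without HFC replicate 14 and turned to -0.47 when HFC replicates 13, 14 and 16 were left out together. The log2 fold change of SOX10 was 1.33 (SE 0.80, interval -0.35 to 3.01, edgeR adjusted p = 0.958) and that of VIM 1.02 (SE 0.55, interval -0.13 to 2.17, edgeR adjusted p = 0.912). SOX10 was at 1.01 without HFC replicate 14 and at 0.46 without HFC replicates 13, 14 and 16 together. VIM was at 0.58 without HFC replicate 16. For APOD the value was 0.52 (SE 0.71, interval -0.97 to 2.01), with 1.40 without LFC replicate 5. It fell to 0.25 when HFC replicate 14 was left out and to 0.28 when HFC replicate 13 was. Intervals of these 4 genes include 0 and also include changes of 4-fold or more, so the design leaves wide limits for them.

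The narrowest limits were those of AQP4 and MBP. AQP4 had a log2 fold change of -0.09 (SE 0.23, interval -0.57 to 0.39), which lay between -0.21 and -0.03 when single libraries were left out. MBP had a log2 fold change of 0.29 (SE 0.26, interval -0.25 to 0.82), which fell to 0.07 without HFC replicate 14 and to 0.12 without HFC replicate 13. Without HFC replicates 13, 14 and 16 together it was -0.18. With limma-voom the log2 fold change was 0.38 for VIM, 0.78 for SOX10 and 0.12 for MBP. Exact permutation p-values were 0.834 for AQP4, 0.621 for MBP, 0.377 for APOD, 0.386 for SOX10 and 0.552 for VIM.

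**Figure D2:**
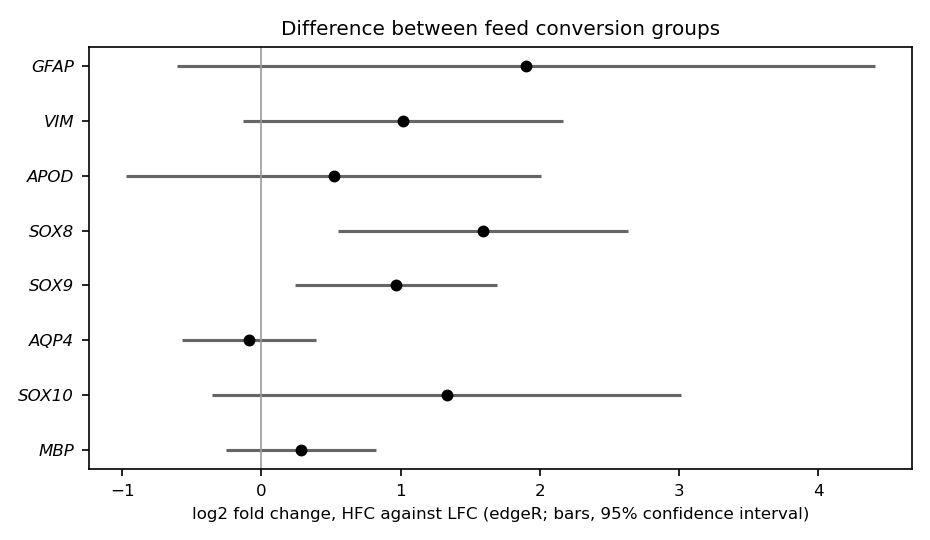
Log2 fold change of each member, HFC against LFC, from the edgeR fit of all 16 libraries (points) with its 95% confidence interval (bars). The intervals of SOX8 (0.55 to 2.63) and SOX9 (0.24 to 1.69) lie above 0 before adjustment over all genes, and those of the other 6 members include 0.

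The astroglial-type and the myelin members were then set against each other within each library. The mean log2 CPM of the 6 astroglial-type genes was 3.99 ± 0.79 in LFC and 4.78 ± 1.29 in HFC, and that of the 2 myelin genes 3.12 ± 0.72 and 3.56 ± 1.21 (SD, n = 8 each). The astroglial mean exceeded the myelin mean by 0.50 to 1.21 in LFC and by 0.92 to 2.22 in HFC, so the difference was 0.34 larger in HFC on average. These values are a description without a test, and the size of the difference can be compared between libraries but not read as more of either gene kind. HFC replicate 16 stood apart at 2.22, against at most 1.16 in the other HFC libraries, and without it the difference between groups was 0.19. The result also turned on the place of SOX8. Counted with the myelin genes, it left a difference of 0.05. The median log2 fold change was 0.99 over the astroglial-type genes and 0.81 over the myelin genes. The spread of the myelin mean came mostly from SOX10, which spanned 4.85 log2 units over the libraries, against 1.98 for MBP. Its low values rest on 1 to 10 counts. HFC replicate 11 had a myelin mean of 4.07 although its MBP was the lowest of the 16 libraries.

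**Figure D3:**
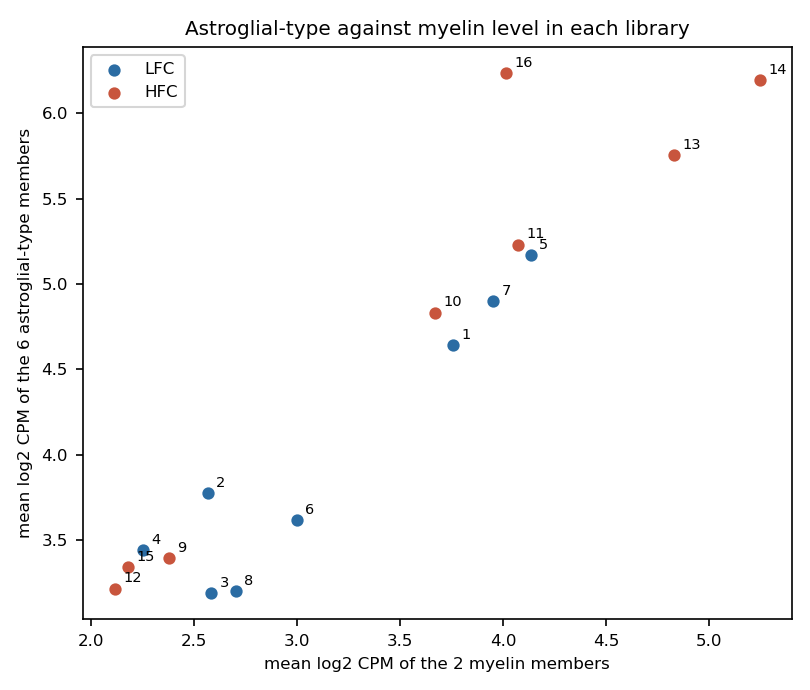
Mean log2 CPM of the 6 astroglial-type members against that of the 2 myelin members, with a point for each library labelled by its replicate number and coloured by group. LFC replicates 1, 5 and 7 lie with HFC replicates 10, 11, 13, 14 and 16 in the upper set, and HFC replicate 16 lies above the others at its myelin level. The myelin mean follows SOX10 more than MBP, which was lowest in HFC replicate 11.

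Across the 16 libraries, correlations of log2 CPM were computed for all 28 pairs of members. GFAP and SOX10 fell into separate clusters of libraries, so no coefficient over all libraries is given for their 13 pairs. SOX8 and SOX9 were the most closely related pair of the rest (Pearson r = 0.92 and Spearman rho = 0.90, permutation p = 1e-05 for both, the smallest that 100000 resamples can give, and 2.10e-04 and 2.80e-04 adjusted over the 28 pairs). Without the 2 libraries farthest in SOX8, HFC replicates 14 and 16, r was 0.84. Within the groups it was 0.97 in HFC and 0.46 in LFC, where both genes spanned a small range. VIM was related to SOX8 (r = 0.83, permutation p = 3.00e-05, adjusted 2.10e-04, rho = 0.72, permutation p = 0.00211, adjusted 0.00844) and, without HFC replicates 12 and 16, r was 0.76. Within the groups it was 0.97 in HFC and 0.33 in LFC. For SOX10, r within LFC and within HFC was 0.93 and 0.84 with GFAP, 0.88 and 0.90 with SOX8, and 0.64 and 0.94 with VIM. It was 0.71 and 0.76 with APOD, 0.40 and 0.84 with SOX9, 0.72 and 0.37 with MBP, and -0.63 and -0.13 with AQP4. The low and high libraries of SOX10 also enter these values.

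No relation of MBP to VIM, SOX8 or SOX9 was found. Its r was 0.23 with VIM (permutation p = 0.388, rho = 0.19, permutation p = 0.485), 0.21 with SOX8 (permutation p = 0.444, rho = 0.22, permutation p = 0.411) and 0.15 with SOX9 (permutation p = 0.570, rho = 0.14, permutation p = 0.593), with adjusted p-values from 0.473 to 0.615. Without the 2 libraries farthest in the other gene, r was 0.41, 0.20 and 0.43. Within LFC these coefficients were 0.43, 0.53 and 0.73, and within HFC 0.20, 0.12 and 0.04. With APOD, MBP had r = 0.55 (permutation p = 0.0255, adjusted 0.0446) and rho = 0.53 (permutation p = 0.0366, adjusted 0.0602), of which the second missed 0.05 when adjusted. Without LFC replicate 8 and HFC replicate 9 this r was 0.47, and it was 0.75 within LFC and 0.57 within HFC. For MBP and GFAP, r was 0.83 within LFC and 0.67 within HFC, where the low and high GFAP libraries also enter. Without HFC replicates 13 and 14 it was 0.34.

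AQP4 ran against APOD (r = -0.67, permutation p = 0.00315, adjusted 0.00735, rho = -0.67, permutation p = 0.00560, adjusted 0.0157), with r = -0.60 without LFC replicate 8 and HFC replicate 9, -0.74 within LFC and -0.63 within HFC. LFC replicate 5 had the lowest AQP4 and the highest APOD, and without it, an alternative chosen after the data were seen, r was -0.58 over the other 15 libraries and -0.18 within LFC, so the relation within LFC rested on that library.

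Among the genes nearest in pattern, chosen by the highest Pearson r over the 16 libraries from 12945 tested genes with a symbol, each member had its own set. These coefficients rank genes and carry no test, and for GFAP and SOX10 they also carry the split of the libraries into a low and a high set. Near GFAP were HEPACAM, an adhesion protein of astroglia (r = 0.943), and TF, which encodes transferrin and is made by oligodendrocytes (0.941). SOX10 was nearest to OXT, the oxytocin precursor (0.964), OLIG1, a factor of the oligodendrocyte lineage (0.958), and SCRG1 (0.952). SOX8 was nearest to NGFR, the low-affinity neurotrophin receptor (0.985), TSHR, the thyrotropin receptor (0.971), and BMP7, a growth factor (0.962). SOX9 was nearest to ARRB1 (0.936), TLR9 (0.921) and MR1 (0.919). VIM was nearest to MMP28 (0.945), LRP4 (0.917) and LMO2 (0.916), and APOD to MGP, a matrix protein of mesenchymal cells (0.966), A4GALT (0.941) and AGT (0.935). AQP4 was nearest to RDX, GXYLT2 and COMMD10 (0.909, 0.899 and 0.899), which fell to between 0.740 and 0.780 without LFC replicate 5 and HFC replicate 9. MBP was nearest to UQCRC2, COQ9 and CNBP (0.874, 0.835 and 0.834), none of them a myelin gene, and these fell to between 0.382 and 0.608 without the 2 libraries farthest in MBP.

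A list of 29 further astroglial and pituicyte genes was read beside the members. Genes of the lists that are named for their p-value were picked after their values were seen. Of the 29, 26 were in the table and 23 were tested, and 20 of the 23 were higher in HFC, as were 48.4% of all genes. None was called, and 7 had an unadjusted p under 0.05, each higher in HFC, where 4.29% of all genes were. Among them were RAX, LHX2, COL25A1, ADM, GJA1 and PTN. The median log2 fold change of the list was 0.63. The 4 genes of the list with the highest CPM, an order that also depends on transcript length, are expressed by many other cell types. CLU was at a log2 fold change of 0.14 (SE 0.21), SPARCL1 at -0.29 (SE 0.18), MT3 at 0.02 (SE 0.47) and GLUL at 0.27 (SE 0.17). The count of 7 was 0 with limma-voom and 3 with at least 10 counts required in every library, where 15 genes of the list were tested. Single libraries also moved it. It was 4 without HFC replicate 16, 13 without LFC replicate 5, and 0 without HFC replicates 13, 14 and 16 together.

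RAX and LHX2, picked in the same way, show where the high values lay. RAX, a homeobox factor of pituicytes and their precursors, was at 0 to 1.86 CPM in LFC and 0 to 30.7 CPM in HFC, and 7 libraries had no count. It was highest in HFC replicates 16 (30.7 CPM) and 11 (16.2), followed by HFC replicates 14 (7.29) and 13 (5.38). LHX2, a factor that the neural lobe needs to form, had the same order, with 115 CPM in HFC replicate 16, 55.1 in replicate 11, 28.6 in replicate 14 and 15.3 in replicate 13. The highest LFC library, replicate 1, had 6.81 CPM.

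The myelin side was read from 25 further oligodendrocyte and shared myelin genes, of which 23 were in the table and 16 were tested. None was called, 0 had an unadjusted p under 0.05 in edgeR and 1 in DESeq2, and 9 were higher and 7 lower in HFC, with a median log2 fold change of 0.11. Without LFC replicate 5, 2 genes were higher and 1 lower at this level. Without HFC replicate 9, 2 were lower, and without HFC replicate 15, 1 was higher. The 4 with the highest CPM were CD9 (log2 fold change -0.02, SE 0.20), BCAS1 (-0.27, SE 0.41), ENPP2 (-0.47, SE 0.29) and CNTN2 (-0.22, SE 0.30), which endocrine or other cells also express. CNP, an enzyme of myelin sheaths, also picked after its values were seen, was at 63.1 to 109 CPM in LFC and 60.8 to 115 CPM in HFC.

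MAG, the myelin-associated glycoprotein, was picked after its values were seen and did not pass the filter. It was at 22.7 CPM in HFC replicate 14, 19.2 in HFC replicate 13 and 10.8 in LFC replicate 5, against 0.872 in HFC replicate 16 and 0.207 in HFC replicate 11. MAG and MBP were thus lower in HFC replicates 11 and 16, where RAX and LHX2 were at their highest, than in HFC replicates 13 and 14. Some genes of the oligodendrocyte lineage were nevertheless high in HFC replicates 11 and 16. SOX10 was at 4.25 CPM in HFC replicate 11 and 2.62 CPM in HFC replicate 16, and OLIG1 at 5.33 and 2.56 CPM. CLDN11, a tight junction protein of myelin, was at 29.6 and 35.3 CPM, against 5.91 to 48.9 CPM in LFC. The contrast between these genes was not tested.

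**Figure D4:**
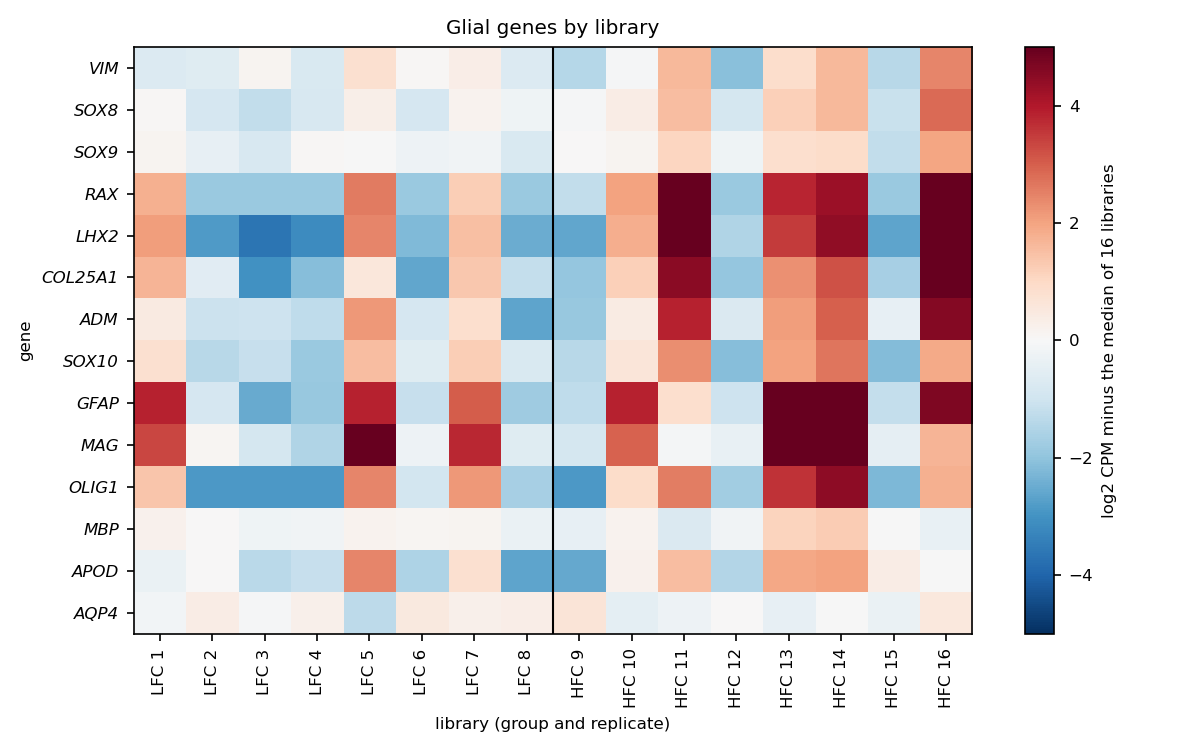
Log2 CPM minus its median over the 16 libraries for the 8 members and 6 further glial genes picked after their values were seen (rows), by library (columns, with a line between LFC and HFC). Colours end at 5 in either direction. HFC replicate 16 holds the highest value of RAX, LHX2, COL25A1 and ADM, and HFC replicate 14 that of GFAP, MAG, OLIG1 and MBP.

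Of 14 Schwann cell genes 13 were in the table, 9 were tested and 7 were higher in HFC, as were 48.4% of all genes. None was called, and 3 had an unadjusted p under 0.05, each higher in HFC, where 4.29% of all genes were: NGFR (log2 fold change 2.36, SE 0.71), ERBB3, a neuregulin receptor (0.87, SE 0.33), and PMP22, a peripheral myelin protein (0.80, SE 0.35). NGFR was at 166 CPM in HFC replicate 16 and 87.8 CPM in HFC replicate 11, against at most 62.7 CPM elsewhere. The count of 3 was 1 without HFC replicate 11 and 0 without HFC replicates 13, 14 and 16 together. L1CAM, with the highest CPM of this list, had a log2 fold change of -0.21 (SE 0.31). Of 8 oligodendrocyte precursor genes 5 were tested, and SOX6 had an unadjusted p under 0.05 (log2 fold change 1.95, SE 0.64). LHFPL3, with the highest CPM of that list, had a log2 fold change of 0.04 (SE 0.20). OLIG2 was at 0 in 9 libraries and OLIG1 in 4.

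Of the transcripts carried in hypothalamic axons, AVP and OXT, picked after their values were seen, were highest in the 8 libraries with the highest GFAP. AVP, the vasopressin precursor, was at 0.106 to 16.6 CPM in LFC and 0 to 53.3 CPM in HFC, and OXT at 0 to 46.6 and 0 to 76.8 CPM. OXT was at 13.1, 46.6 and 11.06 CPM in LFC replicates 1, 5 and 7, and at no more than 0.434 CPM in the other LFC libraries. SNAP25, NEFL, STMN2 and TUBB3, the genes of the axon and neuron list with the highest CPM, did not divide the libraries in this way. SNAP25 was at 111 CPM in LFC replicate 5 and 158 CPM in HFC replicate 14, the lowest values of their groups. Log2 fold changes of these genes were, in this order, 0.06, -0.25, -0.16 and 0.07.

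Markers of other cell types were read because VIM and APOD are not particular to glia. Of all genes, 48.4% were higher in HFC, 4.29% were higher at an unadjusted p under 0.05, and 1.53% were lower at this level. Among 9 fibroblast genes, 7 were higher in HFC and 1, LUM, had an unadjusted p under 0.05. FBLN1, with the highest CPM of this list, had a log2 fold change of 0.14 (SE 0.19). The summed level of the list was 404 to 1513 CPM in LFC and 408 to 1331 CPM in HFC. Among 9 endothelial genes 1 was higher and 8 lower, with sums of 448 to 789 and 354 to 750 CPM. Among 10 microglia and macrophage genes 9 were higher and 3 had an unadjusted p under 0.05 (CX3CR1, ITGAM and P2RY12), with sums of 133 to 522 and 188 to 470 CPM. Those with the highest CPM were C1QB (log2 fold change 0.25, SE 0.33), C1QC (0.15, SE 0.31), C1QA (-0.005, SE 0.33) and CSF1R (0.55, SE 0.32). No gene of these 3 lists was at 0 in any library. Of 9 stem and folliculostellate genes tested 4 were higher (1496 to 2310 and 598 to 1998 CPM), and of 8 axon and neuron genes 6 (379 to 655 and 462 to 671 CPM). The 4 melanotroph genes tested were higher in HFC, 3 with an unadjusted p under 0.05, and their sum was 173 to 295 CPM in LFC and 167 to 621 CPM in HFC apart from HFC replicate 16, where it was 3424 CPM. HFC replicate 16, in which SOX8, SOX9, VIM, RAX and LHX2 peaked, also had the lowest summed levels of the anterior hormone genes (12630 CPM) and of the stem and folliculostellate genes (598 CPM). The 5 anterior lobe hormone genes tested were lower, 1 of them, PRL, with an unadjusted p under 0.05. The part of these cell types in the differences of the glial genes was not tested.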

How the data were processed

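Pituitary RNA of 16 Puławska gilts was sequenced as single reads from poly(A) libraries that keep no strand. Reads were checked with FastQC, trimmed with Flexbar and mapped to Sscrofa11.1 with Ensembl models (STAR, RSEM and Bowtie 2 are named), and the authors deposited the resulting raw counts of each gene and library. Another deposited table holds the authors' comparison (group means, folds, p-values). Only its gene symbols and coordinates, the other deposited values, were used here.

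Symbols came from the deposited table, else from a table of Ensembl names (15545 of 25880 genes). RefSeq coordinates of the same assembly were used for SOX9, AQP4 and SOX10. HFC and LFC were tested with edgeR 4.0.16, under R 4.3.3 (glmQLFit and glmQLFTest, TMM, filterByExpr, no covariate) over 14319 genes, with Benjamini-Hochberg adjustment over all of them. The fit was first checked on simulated data. These had less spread than the libraries, whose biological coefficient of variation was 38.6%, so the check does not measure power here. SE values were derived from the fold change and the F statistic. Log2 CPM used TMM factors and a prior count of 2. Single genes were compared by exact permutation over 12870 assignments, two-sided, and relations between members by 100000 resamples, with scipy 1.17.1. Same-group libraries differed by at least 23.4 in chi-square per degree of freedom (56 pairs), so none was taken as a duplicate. P-values measure the spread between gilts.

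The named genes were the 8 members, for each member the 3 genes highest in Pearson r over the libraries, and the genes highest in CPM of marker lists for astroglia and pituicytes, oligodendrocytes and myelin, Schwann cells, oligodendrocyte precursors, fibroblasts, endothelium, microglia, stem cells, axons and neurons, melanotrophs and anterior hormones. The members and lists were chosen with earlier results of these data known. S100B, NKX2-1, SOX2 and GJB6 are not analysed here, and some genes of the lists and rankings are not reported here. Alternatives were DESeq2 1.42.0, limma-voom (limma 3.58.1), other scalings and filters, and libraries left out.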

Additional observations from a re-analysis of the deposited data

Results flagged for a closer look

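For 11 measures (the 8 members and the 3 means and differences of the astroglial-type and myelin genes) the highest and lowest library of each group were compared with the remaining 7. This gave 22 comparisons, of which 2 found a library that stood apart, where chance alone gives about 1.1. In LFC replicate 5, the log2 CPM of AQP4 was 2.95, whereas the other LFC libraries lay between 4.11 and 4.74. The same library lay farthest out on the first principal component. In HFC replicate 16, the astroglial-type mean exceeded the myelin mean by 2.22 log2 units, and in the other HFC libraries by 0.92 to 1.16.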

How the results depend on the processing

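The count of 0 members called was the same in all 27 alternatives. The count of all genes called was 0 in 26 of 27 and 6 with DESeq2. The 2 members at an unadjusted p under 0.05 became 1 with limma-voom and 0 without HFC replicates 13, 14 and 16 together, and were 2 or 3 in the other alternatives. Log2 fold changes changed sign in 4 cases. Without HFC replicates 13, 14 and 16 together, GFAP was at -0.47, APOD at -0.11 and MBP at -0.18. Without LFC replicate 5 and HFC replicates 13 and 14 together, MBP was at -0.19. In the same setting without the 3 HFC libraries, SOX8 was at 0.66, SOX9 at 0.39, SOX10 at 0.46 and VIM at 0.09. The other signs of the 8 members were kept in every alternative that tested them. GFAP and SOX10 could not be tested with at least 10 counts in every library, and SOX10 was not tested when LFC replicate 5 and HFC replicate 14 were left out together, with or without HFC replicate 13. The median log2 fold change ranged from -0.01 to 1.298 over the astroglial-type members and from 0.14 to 0.9997 over the myelin members, with the lowest values without HFC replicates 13, 14 and 16 and the highest without LFC replicate 5. The astroglial minus myelin difference ranged from 0.05 to 0.45.

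Counts for the lists were recomputed in alternatives added after the data were seen. The 7 astroglial and pituicyte genes higher at an unadjusted p under 0.05 became 0 with limma-voom, 3 with at least 10 counts in every library, 0 without HFC replicates 13, 14 and 16, and 4 to 13 when single libraries were left out. For genes higher in HFC, the 0 of the oligodendrocyte and myelin list became 1 with DESeq2, 2 without a filter, 0 to 2 when single libraries were left out, 1 without LFC replicate 5 and HFC replicate 14, and 1 without these and HFC replicate 13. The 3 of the Schwann cell list became 1 to 4 when single libraries were left out (1 without HFC replicate 11) and 0 without HFC replicates 13, 14 and 16. The cause was not tested. No paired analysis was possible because the groups share no replicate numbers. Low counts limit SOX10, RAX, MAG and OLIG1.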
